A study of Drosophila melanogaster with 15 samples.

Results

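The genes described are 10 transcription factors known for setting the identity of mushroom body neurons: ey, toy, dac, Mef2, chinmo, ab, br, Hr51 (also called unf), mamo and pros. They were chosen by name and no measured value entered the rule, but earlier results of these data were known when they were chosen. Every row of the 6 deposited lists whose gene symbol was one of these names was taken. Of the 10 genes, 9 were named in at least 1 list, among 7766 genes named in any list. The remaining gene, ab, was named in none.

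The mushroom bodies are the paired centers of the fly brain in which olfactory memory is formed and stored, and their intrinsic neurons are called Kenyon cells. Kenyon cells arise from a few neuroblasts that produce the γ, α'/β' and α/β types one after another. Transcription factors of the Pax6 and Dachshund families pattern these neurons, BTB zinc finger proteins set which type is made at which time, and nuclear receptor and homeodomain factors act in their differentiation and in the growth of their axons. CREB is a DNA-binding factor required for long-term memory, and CRTC is a coactivator that enters the nucleus and binds CREB. Acetylation of histone H3 at lysine 9 (H3K9Ac) and of histone H4 at lysine 16 (H4K16Ac) marks active chromatin.

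Chromatin immunoprecipitation with sequencing (ChIP-seq) had been performed on mushroom body nuclei of the fly strain CS10, either 1 day after spaced training, in which odor and electric shock are paired repeatedly with rests in between, or without training (naive). H3K9Ac was measured in 3 libraries from spaced-trained and 3 from naive flies, and H4K16Ac likewise. For CREB and CRTC there was 1 library each, both of spaced-trained flies, and a single input library of naive flies brought the total to 15 samples. All flies carried a FLAG-tagged KASH protein in the nuclear membrane, driven by MBp-LexA, and many flies were pooled for each preparation. Expression from this driver is high in α/β and γ neurons and low in those of the α'/β' type. A feature of a minor Kenyon cell type cannot be told apart from a weak feature of all of them.

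The lists give positions on the dm3 genome and no value per library, so neither the spread between libraries nor their depth can be read from them. The CREB list held 4803 sites at 2536 genes and the CRTC list 3002 sites at 1671 genes. The peak tables held 23378 H3K9Ac peaks and 24152 H4K16Ac peaks, and 1889 and 1428 regions were listed as having more H3K9Ac and H4K16Ac in spaced-trained than in naive flies. Among marker genes, 7 of 9 Kenyon cell genes and 5 of 5 pan-neuronal genes carried a site or an acetylation window, against 2 of 5 glial, 2 of 5 photoreceptor, 0 of 3 fat body and 0 of 3 muscle genes. The Kenyon cell genes sNPF and prt, and the glial genes repo, gcm and wrapper, had nothing. The glial gene moody had 4 CREB sites, 1 CRTC site and 1 H4K16Ac window, and the glial gene Eaat1 had 1 H3K9Ac window. No share over all genes of the genome stands beside these counts, since the lists name only genes with a row. The marker lists were chosen with earlier results of these data known, so these counts are no independent check of the tissue. Listing of a gene is not its expression, which was not measured in these files.

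The 10 genes held 11 CREB sites at 6 genes, 11 CRTC sites at 5 genes, 69 H3K9Ac peak rows at 6 genes and 40 H4K16Ac peak rows at 4 genes. Over all 7766 genes, 32.7% had a CREB site, 21.5% a CRTC site, 65.8% an H3K9Ac peak and 76.1% an H4K16Ac peak. Since a gene enters that total only by being named in some list, these shares are not shares of the genome. The genes differed in what they carried. By the names in the lists, the Pax6 homologs ey and toy and the MADS-box factor Mef2 held mostly acetylation. The genes chinmo, pros and Hr51 held binding sites without any acetylation peak, and mamo held all kinds of feature except a listed H4K16Ac increase. This grouping depends on the names, since 5 CREB and 6 CRTC sites under another symbol, CG15863, lay inside the stretch of the Mef2 rows.

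**Figure D1:**
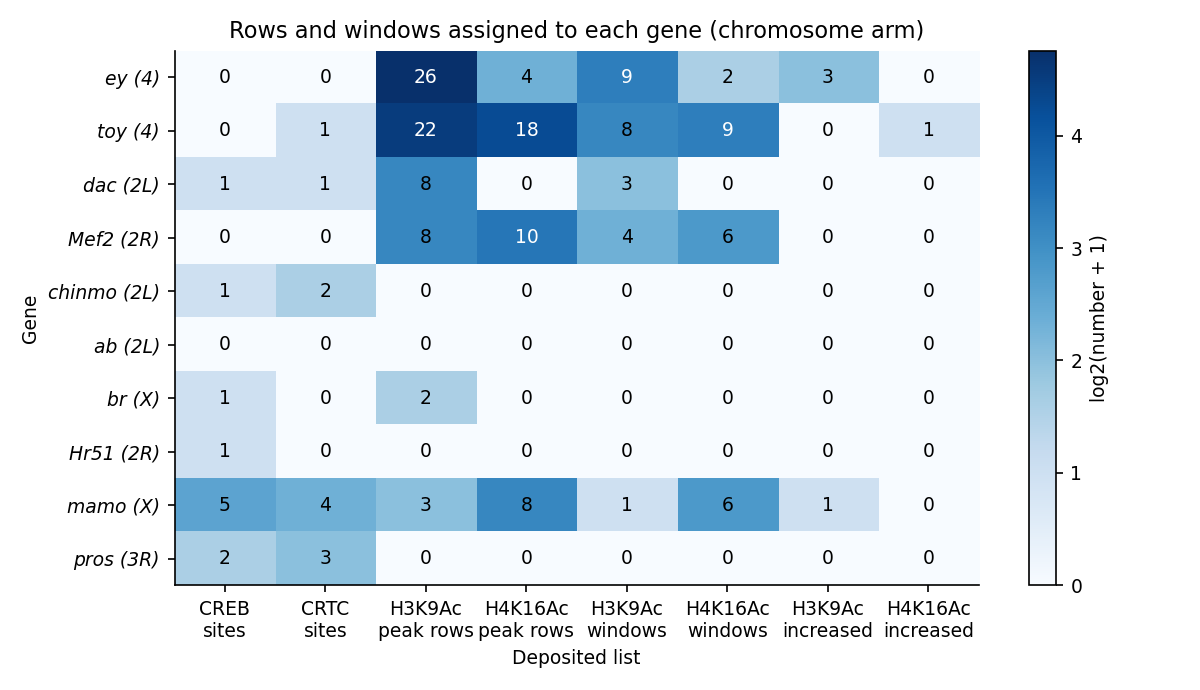
Number of rows in each deposited list, and of non-overlapping 400 bp windows made from the peak rows, for each of the 10 genes (rows, chromosome arm in brackets); color gives log2(number + 1). The acetylation rows lie mainly at ey and toy, with 26 and 22 H3K9Ac peak rows. Under its own name mamo has the most binding sites, with 5 for CREB and 4 for CRTC, and ab has no row.

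Peak rows repeat one another, because a peak table consists of 3 successive runs, each crossing the whole genome and none carrying the name of a library. To count each place once, every peak was set to 400 bp around its center, the width of the listed regions, and overlapping windows were removed, which left 7797 H3K9Ac and 9333 H4K16Ac windows. The 10 genes then had 25 H3K9Ac windows at 5 genes and 23 H4K16Ac windows at 4 genes. Each window is described by the authors' PICS score, a measure of peak strength against input without a fixed range. Every peak was assigned to the window with the nearest center, so a peak could be centered outside the window it was assigned to. For each run in which a window had a peak, the highest score among its assigned peaks is given.

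The gene ey (eyeless), a Pax6 homolog of the small, largely heterochromatic chromosome 4, had 9 H3K9Ac windows. Only 25 of the 4997 genes with an H3K9Ac window had 9 or more, and the median was 1. On chromosome 4 the median was 2 over 68 genes, 2 of which reached 9. Gene length, which bears on such counts, was not compared. All 9 windows of ey were annotated as intronic and were packed between chr4:724061 and chr4:728971. Their highest scores ranged between 0.745 and 7.47 with a median of 2.87, beside a median of 2.51 over all H3K9Ac windows.

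The strongest ey window, chr4:726956-727356, scored 7.47 in run 1 and 6.44 in run 3 and was not present in run 2. It exceeded 97.7% of all H3K9Ac windows, but was not listed as increased. Its run 1 peak was centered at chr4:727361, just past the end of the window. The next strongest, chr4:725227-725627, scored 5.59 in run 1 and 5.02 in run 2 and was absent in run 3. The peaks with these scores were centered past the end of the window, at chr4:725698 and chr4:725706. Those centered inside it scored 4.02 in run 1 and 3.58 in run 2. Both of the strongest windows were thus missing from 1 of the 3 runs.

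Of the 9 H3K9Ac windows, 3 were listed as increased in spaced-trained over naive flies, a list that held 24.2% of all H3K9Ac windows and named 30.2% of all genes with an H3K9Ac peak. The region chr4:727550-727950 scored 2.32, 2.23 and 2.31 in the 3 runs, and lay 104 bp upstream of the start site given for it. The region chr4:728108-728508 scored 2.33, 1.95 and 2.74 and lay 53 bp downstream of that start. The highest scores of both regions lie near the middle of all windows. Scores of chr4:727550-727950 were close to each other between runs. Those of chr4:728108-728508 belong to peaks centered apart, at chr4:728473 in run 1, chr4:728143 in run 2 and chr4:728529 in run 3. A run 1 peak at chr4:728146, beside that of run 2, scored 1.33. The other region, chr4:724509-724909, scored 0.745 in run 3 and had no peak in the remaining runs, which put it above only 1.49% of all H3K9Ac windows. It lay 367 bp upstream of another start site of ey. Measured from the start of the longest transcript, the strongest peaks assigned to these 3 regions were centered 9369, 10214 and 6394 bp inside the gene. The peak at 10214 bp, of run 3, was centered at chr4:728529, just past the end of its region. The starts beside the 3 regions are thus internal to the gene.

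H4K16Ac at ey was limited to 2 windows. The window chr4:725803-726203 scored 1.10 in run 1 and 2.75 in run 2, and chr4:725264-725664 scored 1.05 in run 3. The peak scoring 2.75 was centered just outside its window, at chr4:725770. Both windows overlapped H3K9Ac windows, and neither was listed as increased. No CREB or CRTC site was assigned to ey. The nearest CREB site to its listed regions was 7968 bp away and the nearest CRTC site 78239 bp away.

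The gene toy (twin of eyeless), the second Pax6 homolog and also on chromosome 4, had 9 H4K16Ac windows and 8 H3K9Ac windows. For H4K16Ac, 30 of 5796 genes had 9 or more windows and the median was 1. On chromosome 4, toy was the only one of 46 genes with 9. The strongest peaks of these windows lay on both sides of the start site, between 4878 bp upstream and 6766 bp downstream.

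The region chr4:1010279-1010679 of toy was the 1 region among the 10 genes that was listed for H4K16Ac as increased in spaced-trained over naive flies, a list that held 15.3% of all H4K16Ac windows and named 19.7% of all genes with an H4K16Ac peak. It covered an annotated start site and the 5' untranslated region, and scored 3.60 in run 2 and 2.87 in run 3, with no peak in run 1. No H3K9Ac window overlapped it, the nearest being 546 bp away. The strongest H4K16Ac window of the gene lay upstream, at chr4:1005942-1006342, with scores of 1.41 in run 2 and 4.46 in run 3. The peaks with these scores were centered apart, at chr4:1006142 in run 2 and chr4:1005944 in run 3. Their difference is therefore not one between runs at the same place. The strongest H3K9Ac window, chr4:1011225-1011625 in an intron, was present in all runs at 4.71, 3.85 and 4.42, and was not listed.

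A single CRTC site was assigned to toy, at chr4:1010143-1010155. It lay 195 bp upstream of the start and 124 bp from the listed H4K16Ac region. Its enrichment factor, the ratio of ChIP to background reads given by the ERD algorithm, was 2.62, which was the lowest of the 11 CRTC sites at these genes and exceeded only 5.66% of all CRTC sites. The nearest CREB site was 52919 bp away, at mGluRA. This CRTC site thus had no CREB site beside it in these lists.

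**Figure D2:**
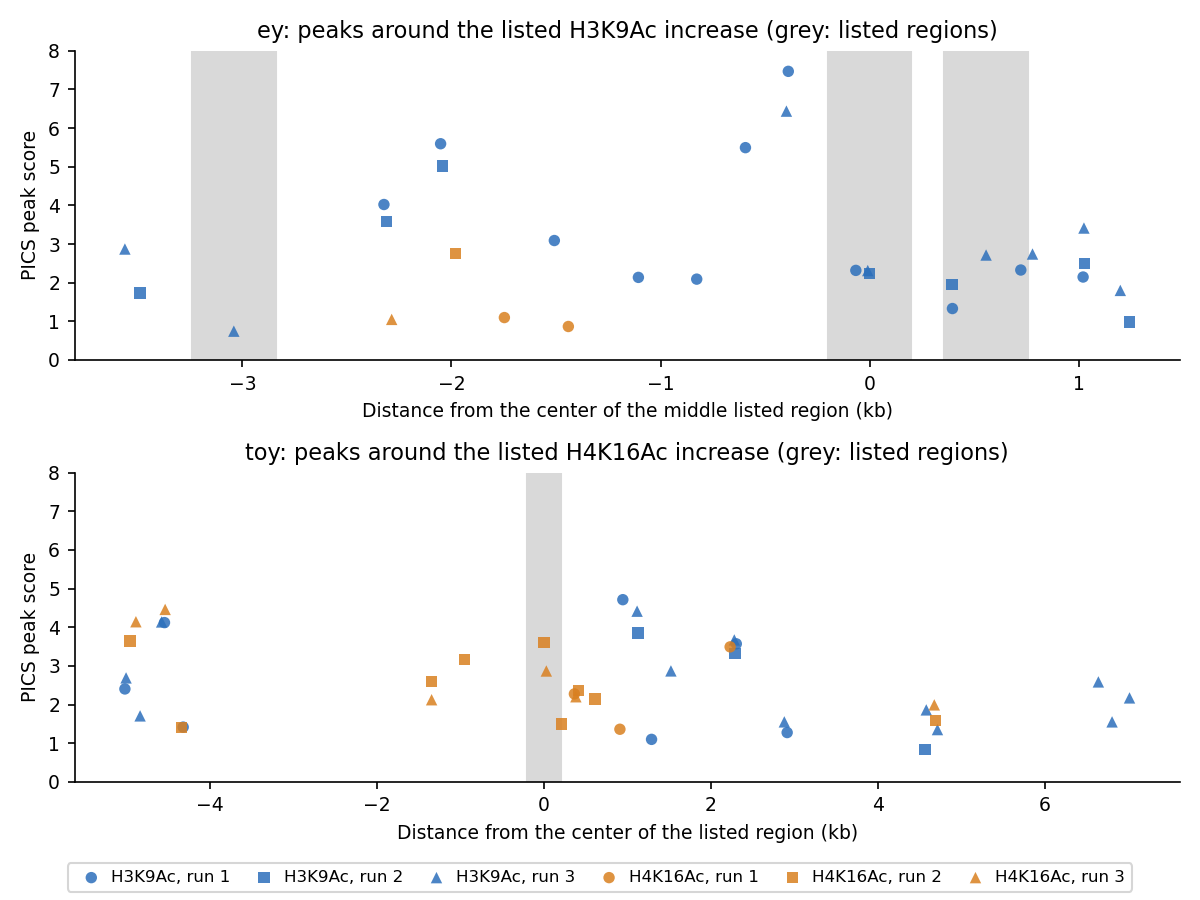
PICS score of every peak row assigned to ey (top) and toy (bottom) against distance along the chromosome in kb from the center of the listed region (for ey, the middle of 3); color gives the mark, the marker shape gives the run of rows, and grey bars are the regions listed as increased. At ey the highest scores, 7.47 and 6.44, lie between listed regions; at toy the listed region holds H4K16Ac peaks of runs 2 and 3.

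The gene dac (dachshund), a nuclear cofactor that works with Pax6 factors in eye and mushroom body development, had 3 H3K9Ac windows and no H4K16Ac peak. The strongest by its assigned peaks, chr2L:16485168-16485568, scored 1.72 in run 1 and 4.84 in run 2, above 90.3% of all H3K9Ac windows. The peak scoring 4.84, in an intron, was centered outside this window, at chr2L:16485106. The run 2 peak centered inside the window scored 1.30. None of the 3 windows of dac was listed as increased. Its CREB site, chr2L:16486546-16486568, had an enrichment factor of 4.59 and lay 562 bp upstream of a start site. Its CRTC site, chr2L:16486419-16486479, had a factor of 4.57 and lay 435 bp upstream. The sites were 67 bp apart, within the 200 bp that the study's methods set for a joint CREB/CRTC site, and the CRTC site was 851 bp from the nearest H3K9Ac window.

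Mef2, a MADS-box factor strongly present in Kenyon cells, had 4 H3K9Ac and 6 H4K16Ac windows, none of them listed as increased. The strongest H3K9Ac window, chr2R:5845164-5845564, lay in an intron 949 bp downstream of the start of the longest transcript. It was present in all runs, with scores of 2.36, 2.12 and 1.29. The strongest H4K16Ac window, chr2R:5842192-5842592, was present in run 2 alone at 2.30, and 5 of the 6 H4K16Ac windows were seen in a single run.

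No CREB or CRTC site carried the symbol Mef2. Inside the stretch of 33387 bp that the Mef2 rows span, however, 5 CREB and 6 CRTC sites were listed under another symbol, CG15863. The strongest was the CREB site chr2R:5842746-5842793 with an enrichment factor of 15.2, higher than 95.1% of all CREB sites. It overlapped the CRTC site chr2R:5842737-5842843, which had a factor of 7.75. These sites lay 3544 and 3523 bp downstream of the Mef2 start that the peak table implies. A further CREB site, chr2R:5845907-5845926, overlapped both an H3K9Ac and an H4K16Ac window named Mef2 in its 5' untranslated region, 397 bp downstream of that start, and had a factor of 6.38. Another with the same factor, chr2R:5846325-5846375, lay 37 bp upstream of it. The list gives these sites by their distance from the CG15863 start, 1279 and 830 bp. All 5 CREB sites and 5 of the 6 CRTC sites were within 200 bp of an acetylation window. Which gene these sites act on cannot be read from the lists, and the absence of Mef2 from the site lists is an absence of its name.

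The gene mamo, a BTB zinc finger factor known for specifying α'/β' neurons, had the most binding sites under its own name of the 10 genes. It had 5 for CREB and 4 for CRTC, beside the 5 and 6 sites named CG15863 in the stretch of Mef2. Gene length was not compared here either. Of genes with any site, 6.19% had 5 or more CREB sites (157 of 2536) and 8.92% had 4 or more CRTC sites (149 of 1671). The sites of mamo fell into groups far apart within 102434 bp of the X chromosome. The driver labels α'/β' neurons weakly, so the type of neuron from which these sites came cannot be told apart.

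The CREB site chrX:13828164-13828216 of mamo had an enrichment factor of 26.4, rank 16 of the 4801 CREB sites with a factor. It lay 863 bp upstream of an annotated start. That start lies within the region chrX:13827051-13827451, which was listed as increased for H3K9Ac in spaced-trained over naive flies and scored 1.43, 1.33 and 1.97 in the 3 runs. The CREB site and the listed region were 713 bp apart. The nearest CRTC site, also of mamo, was 1893 bp away from the CREB site and had a factor of 3.27. The strongest CREB site among these genes was thus without a CRTC site within 200 bp.

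At a second start of mamo, the CREB site chrX:13880761-13880831 with a factor of 9.30 overlapped the CRTC site chrX:13880776-13880868 with a factor of 4.11. They lay 874 and 889 bp upstream. A further pair of CREB sites, chrX:13884709-13884797 and chrX:13884943-13885005, lay 4822 and 5056 bp upstream and shared a factor of 12.8. Neighboring sites with 1 shared factor are not separate measurements of strength, though each was counted as a site in the medians given below. Deep in the gene, the CREB site chrX:13787659-13787687 with a factor of 5.60 lay 5 bp from the CRTC site chrX:13787692-13787760 with a factor of 6.93, 39613 bp downstream of the mamo start given for it.

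H4K16Ac at mamo comprised 6 windows, each seen in 1 run only. By their assigned peaks, their scores ranged between 1.37 and 3.40, the highest being that of chrX:13829245-13829645 in run 3. The peak scoring 3.40 was centered just past the end of this window, at chrX:13829661, and the peak centered inside it scored 1.17. None of the 6 windows was listed as increased and none overlapped an H3K9Ac window. A second CRTC site beside the deep pair, chrX:13787908-13787980, was 42 bp from an H4K16Ac window. Farther into the gene, a CREB site and a CRTC site named CG32626 lay 26 and 0 bp from another H4K16Ac window of mamo, with factors of 5.81 and 4.17.

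**Figure D3:**
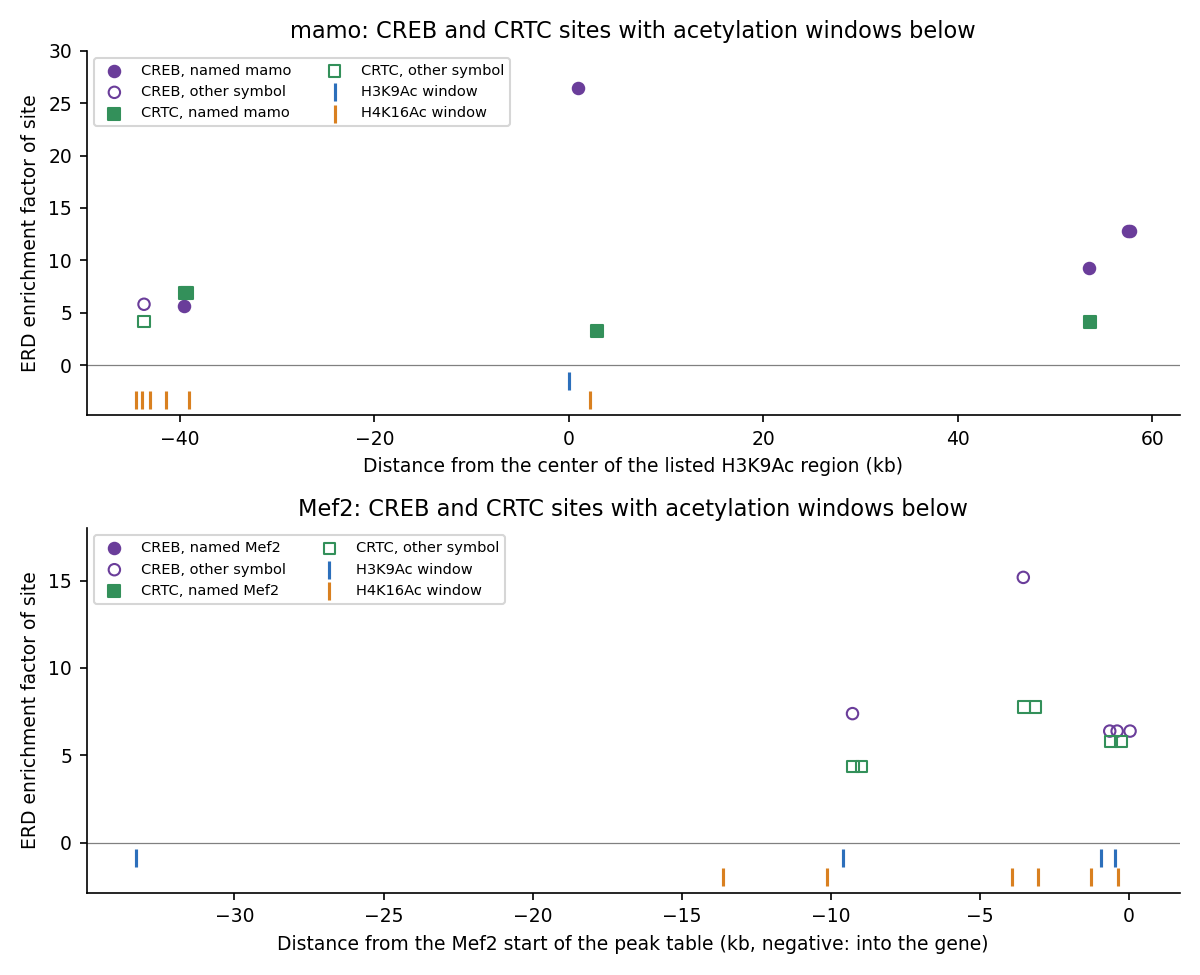
ERD enrichment factor of CREB (circles) and CRTC (squares) sites against position in kb at mamo (top, zero at the listed H3K9Ac region) and Mef2 (bottom, zero at the start given by the peak table); open symbols carry another gene symbol, and ticks below zero mark acetylation windows and have no height. The mamo site with a factor of 26.4 stands next to the listed region, and all sites in the Mef2 panel are open.

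Binding without acetylation was seen at 3 genes. At chinmo, a BTB zinc finger factor whose level sets the temporal order of Kenyon cell types, the CREB site chr2L:1649936-1650014 with a factor of 8.32 overlapped the CRTC site chr2L:1649934-1649992 with a factor of 8.67. This CRTC factor was the highest among the 10 genes and exceeded 92.6% of all CRTC sites. The pair lay 1243 and 1265 bp upstream of a start, and the acetylation window nearest to the CREB site was 35772 bp away. A weaker CRTC site, chr2L:1663216-1663296 with a factor of 3.64, had no CREB site within 13202 bp.

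At pros (prospero), a homeodomain factor that drives neuroblast daughters to differentiate, 2 CREB and 3 CRTC sites were listed. The CREB site chr3R:7156839-7156898 with a factor of 7.53 overlapped the CRTC site chr3R:7156830-7156868 with a factor of 7.96. The CREB site chr3R:7161308-7161377, with the higher factor of 8.07, was 19 bp from a CRTC site with a factor of 4.25. The remaining CRTC site lay 25468 bp upstream of the start with a factor of 4.30. Every one of these sites was at least 57941 bp from any acetylation window. At Hr51 (unf), a nuclear receptor needed for the axons of γ neurons to grow again after pruning, a single CREB site lay 827 bp upstream of a start, chr2R:11218216-11218278, with a factor of 5.76. The nearest CRTC site was 7796 bp away, at Arf51F.

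The ecdysone-response gene br (broad), a BTB zinc finger factor of metamorphosis, had 1 CREB site, chrX:1517313-1517389, with a factor of 8.84 and 548 bp downstream of a start. Its 2 H3K9Ac peak rows make up 1 place, chrX:1512291-1512691, with scores of 1.57 in run 1 and 1.5 in run 3. That place was listed as increased for H3K9Ac in spaced-trained over naive flies, but under the name Mur2B, whose start lies 103 bp away. The peak table puts it in an intron of br, 6117 bp from the start of the longest transcript. Between it and the br site, 2 CREB sites that share a factor of 11.2 and 2 CRTC sites that share a factor of 8.09 also carried the name Mur2B. The gene ab (abrupt), a BTB zinc finger factor known from dendrite patterning and from Kenyon cells, had no row in any list, and no row under its 3 older systematic names. At the depth of these libraries, which the lists do not give, this says only that no site or peak passed the thresholds under its name.

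To ask whether these genes were more often listed as acetylated after training than other genes, their counts were set beside those of all genes. For H3K9Ac, 2 of the 6 genes with a peak were in the list of increased regions (ey and mamo), against 30.2% of all 5109 genes with a peak. By window, 4 of 25 were listed (16%, 95% Wilson interval 6.40% to 34.7%), against 24.2% of all windows and 17.9% of those on chromosome 4. For H4K16Ac, 1 of 4 genes with a peak was listed (toy), against 19.7% of 5912 genes, and 1 of 23 windows (4.35%, interval 0.772% to 21.0%), against 15.3% of all windows and 21.8% of the 87 on chromosome 4, where 11 of the 23 lie. These counts are near or below those of all genes and are not a result about the 10 genes. The intervals cover counting error only, and windows of 1 gene are not independent.

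The binding sites were set beside all sites in the same way. The CREB enrichment factor at the 10 genes ranged between 4.59 and 26.4 with a median of 8.32, against a median of 6.17 over 4801 sites with quartiles of 4.33 and 8.96. The CRTC factor ranged between 2.62 and 8.67 with a median of 4.30, against 4.67 over 3002 sites with quartiles of 3.60 and 6.14. No test was made, as 5 of the 11 CREB sites belong to mamo. A CRTC site lay within 200 bp of 6 of the 11 CREB sites (54.5%, 95% Wilson interval 28.0% to 78.7%), against 52.3% of all CREB sites. A CREB site lay within 200 bp of 6 of the 11 CRTC sites (54.5%, with the same interval), against 79.6% of all CRTC sites.

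**Figure D4:**
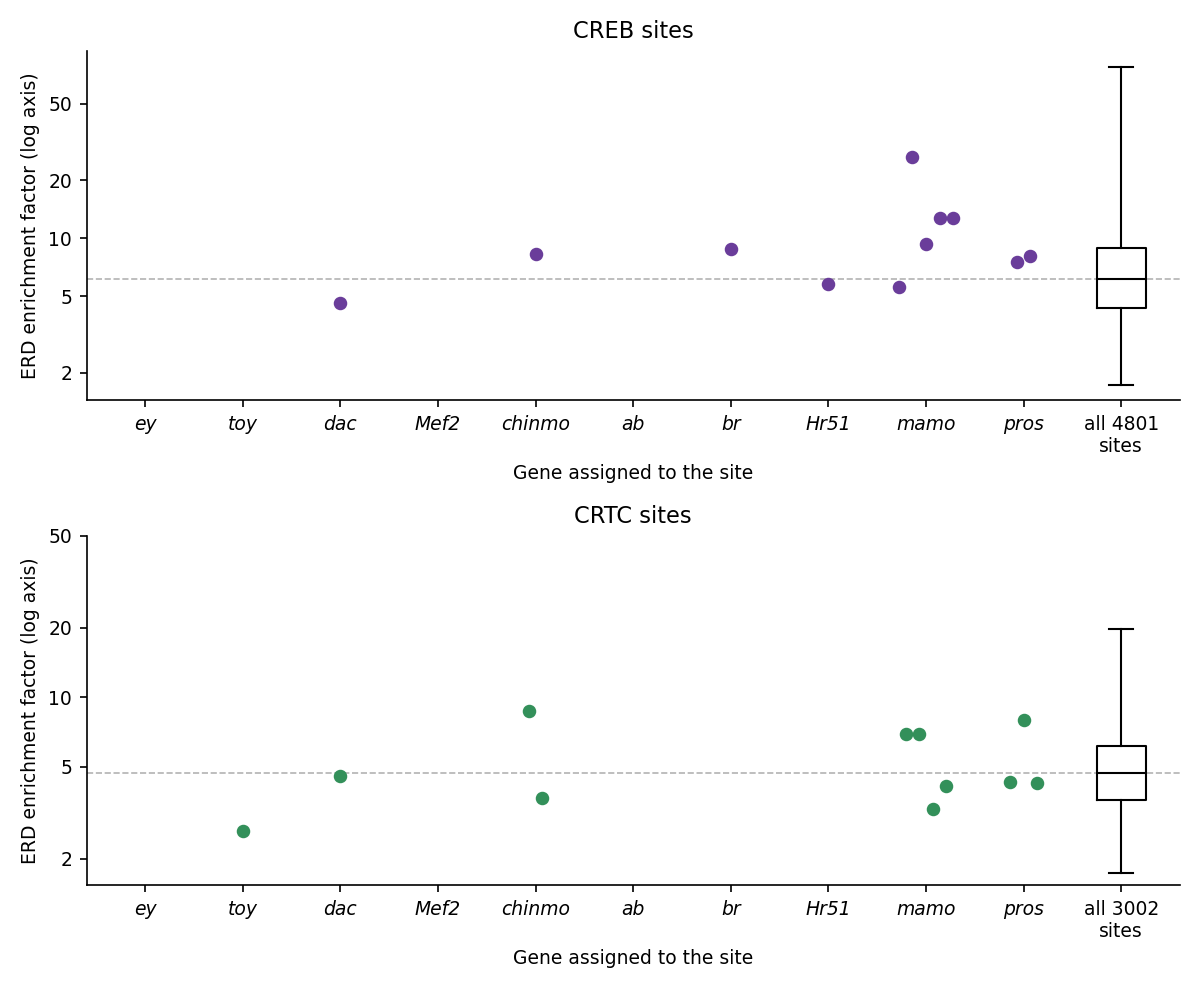
ERD enrichment factor (log axis) of each CREB site (top) and CRTC site (bottom) by gene, with all sites of the list in the last position as a box from the lower to the upper quartile, a line at the median, and whiskers to the lowest and highest value. The dashed line carries the median of all sites across; mamo holds the highest CREB value, 26.4, and chinmo the highest CRTC value, 8.67.

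Position relative to start sites and acetylation differed in count. By the listed distances, 0 of the 11 CREB sites were within 500 bp of a start (upper bound of the 95% Wilson interval 25.9%), against 56.7% of all CREB sites, and 2 of the 11 CRTC sites did (18.2%, interval 5.14% to 47.7%), against 54.4% of all. Likewise no CREB site had an acetylation window of either mark within 200 bp, against 51.7% of all CREB sites, and 2 CRTC sites did, those of toy and mamo named above, against 53.7% of all CRTC sites. These counts depend on the names. When sites of other symbols inside the genes' spans were added, 6 of 19 CREB sites (31.6%, interval 15.4% to 54.0%) and 8 of 20 CRTC sites (40%, interval 21.9% to 61.3%) lay near a window, 5 of them in each case in the stretch of Mef2. With these sites added, and the Mef2 start of the peak table counted, 2 of 19 CREB sites (10.5%, interval 2.94% to 31.4%) and 3 of 20 CRTC sites (15%, interval 5.24% to 36.0%) were within 500 bp of a start. The lists assign each site to 1 gene only.

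Of the acetylation windows at these genes, those annotated as intronic were 20 of 25 for H3K9Ac (80%, interval 60.9% to 91.1%) against 35.0% of all windows, and 15 of 23 for H4K16Ac (65.2%, interval 44.9% to 81.2%) against 31.6%. All 3 runs held 8 of the 25 H3K9Ac windows (32%), against 50.5% of all, and 1 of the 23 H4K16Ac windows (4.35%), against 38.1%. An H4K16Ac window overlapped 9 of 25 H3K9Ac windows (36%, interval 20.2% to 55.5%), against 73.0% of all H3K9Ac windows and 42.6% of the 162 on chromosome 4, where 17 of the 25 lie. In the other direction, 9 of 23 H4K16Ac windows were overlapped (39.1%), against 59.9% of all and 73.6% on chromosome 4. The median of the highest score per window was 2.69 for H3K9Ac, against 2.51 for all windows, and 1.99 for H4K16Ac, against 2.23. None of these differences was tested, and none is called particular to the 10 genes.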

How the data were processed

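Reads were aligned by the authors to dm3 (the build also named in the submitters' processing notes), poorly mapped reads were dropped, and peaks were called with PICS and ERD relative to input. The deposited site lists give a false discovery rate from PICS, the ERD enrichment factor, which is a ratio, and a distance to a start site of the gene named, which was not always the nearest. The authors' peak tables give a PICS score, its false discovery rate and a distance to the start of the longest transcript. The lists of increased regions also hold the authors' own comparison of spaced-trained with naive flies (a mean fold, its SD and a p-value), which was not used. Only the position and name of listed regions were. The study's methods give 3 replicates for CREB and CRTC, whereas the labels used here give 1 library each, and they name a count model for changed windows, whereas the deposited lists have a column headed t-test. Whether these lists are the ones analysed for the paper is therefore not known, and their row counts describe the deposited lists only.

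Groups came from the sample labels. Rows were matched by gene symbol, and by older systematic names, which gave no further rows. For each mark all listed regions were kept, then every 400 bp peak window overlapping none already kept, and each peak was assigned to the window with the nearest center. "Near" means within 200 bp. A gene's span runs over its own rows. No test was run, since the lists hold no values per library, and they give no depth per library. Read totals of the study's supplementary tables were not used. Shares have 95% Wilson intervals. Distances and windows were tested on simulated data, with 300 of 300 distances and 100 of 100 windows recovered. The simulated peak groups lay far apart, so closely packed peaks, such as those at ey, were not covered. Python 3.11.15, pandas 2.3.3, numpy 2.4.6, scipy 1.17.1 and matplotlib 3.10.9 were used.

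The genes and the marker lists were chosen with earlier results of these data known. All 10 genes were to be named with their strongest site per factor, strongest window per mark and every listed region, and other genes only where their symbol lies inside a span or beside a described feature. Regulators of the Kenyon cell list were to be named where they lacked every feature or held the most sites. Coordinates are 1-based on dm3. No sequence is printed, as no genome of that build was used here.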

Additional observations from a re-analysis of the deposited data

How the results depend on the processing

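Of 31 alternative counts over 10 results, 22 stayed within 1.5 times the reported count and 9 moved. Some of the 22 could not move, since CREB sites with no window within 200 bp cannot overlap one. Counts over a gene's span include its own rows and could not fall. Sites at the 10 genes numbered 19 for CREB and 20 for CRTC when every site inside a gene's span was taken, in place of 11 each, and 4 for CRTC at an enrichment factor of at least 5. By direct overlap, 3 in place of 6 CREB sites met a CRTC site. Merging overlapping peak intervals as listed gave 52 H3K9Ac windows in place of 25. H4K16Ac windows, reported as 23, numbered 8 when present in at least 2 runs and 12 with a highest score above the median of all peak rows. They also numbered 12 without run 2 of the rows, an alternative chosen after seeing the data. Within 500 bp, 1 CREB site lay near an H4K16Ac window in place of 0. A false discovery rate of at most 1% changed neither site count, and the names of the peak table gave 5 in place of 4 increased H3K9Ac regions. No paired analysis was possible because the lists hold no values per library, although replicate numbers are shared between spaced-trained and naive libraries. For the same reason no replicate could be left out. Neither the spread between flies nor the depth behind a missing peak can be read from these lists.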

Other observations

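Among 18 other regulators of Kenyon cell fate, timing and remodeling, 10 had a CREB site, 10 a CRTC site, 11 an H3K9Ac window and 10 an H4K16Ac window. Over all 7766 genes named in any list, 32.7% had a CREB site and 21.5% a CRTC site. Of these genes, 4997 had an H3K9Ac window and 5796 an H4K16Ac window. That total holds only genes with a row, whereas 4 of the 18 regulators had nothing. The difference was not tested. The most sites among the 18 were at ftz-f1, a nuclear receptor upstream of the ecdysone response in γ neuron remodeling, with 13 for CREB and 10 for CRTC. The ecdysone receptor gene EcR followed with 12 and 9. Of the 10 with an H3K9Ac peak row 3 were named in the list of increased H3K9Ac regions, against 30.2% of all genes with a peak, and of the 9 with an H4K16Ac peak row 1 was named in that of H4K16Ac, against 19.7%. A further gene, let-7-C, was named in both lists without a peak row of its own name. The gene Eip93F, singled out after its values were seen, had 16 H3K9Ac windows, as many as any gene of the table. The optic lobe and head patterning factors tll and Optix and the neuroblast factors ase and dpn had neither a site nor a window.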
